A study of Mus musculus with 11 samples.

Results

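The 10 genes described here encode secreted proteins of the hepatic acute phase response: the serum amyloid A genes Saa1, Saa2, Saa3 and Saa4, the lipocalin Lcn2, the orosomucoid genes Orm1, Orm2 and Orm3, the haptoglobin gene Hp, and Itih4, an inter-alpha-trypsin inhibitor heavy chain. They were taken by symbol from the gene annotation of the count matrices and make up 10 of the 31053 genes measured. All 10 were detected and all 10 passed the filter on low counts, which left 14821 genes to test.

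The sections came from a spatial profile of mouse liver after acetaminophen (APAP) overdose, a model in which a toxic metabolite formed in pericentral hepatocytes kills those cells and the tissue around them regenerates. Adult C57BL/6JCrl mice, males unless stated otherwise in the study's methods, were fasted and given APAP by intraperitoneal injection, and uninjured liver served as the 0 h group. Visium 3' libraries, in which each spot of a barcoded slide counts mRNA molecules by unique molecular identifiers (UMIs), were made from snap-frozen cryosections: 3 uninjured sections (0 h 2, 0 h 3 and 0 h 4), 2 sections at 24 h (24 h A and 24 h B), 2 at 36 h (36 h A and 36 h B) and 4 at 48 h (48 h A to 48 h D). The methods name 1 mouse liver per time point while the labels list several sections, so n counts sections, each p covers only the spread between sections, which may be technical, and mouse or batch cannot be told apart from time.

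Each section gave 1490 to 3466 spots that passed the spot filter, 31292663 to 67045372 UMIs in those spots, and a median of 15168 to 29950 UMIs per spot. A spot covers several cells, so that fewer cells of a type and less RNA per cell cannot be told apart in any value below. The hepatocyte label was borne out by Alb, at 46059 to 68347 UMIs per 1000000 in every section. The summed level of 10 neutrophil markers was 2.63 to 7.91 per 1000000 at 0 h and 28.8 to 144 after injury. Of these, S100a8 was at most 3.21 at 0 h and 9.84 to 59.4 after injury, and S100a9 at most 2.95 and 12.4 to 69.0. Retnlg, Mmp8 and Cxcr2, at most 0.164, 0.0298 and 0.0664 at 0 h, reached 4.17, 2.31 and 1.39. The granule genes Ltf, Ngp and Camp stayed at or below 0.696 in all 11 sections. The summed level of 10 macrophage markers was 565 to 620 at 0 h and 825 to 2185 after injury. Mesenchyme markers went from 199 to 220 at 0 h up to 753 to 1699 at 48 h, cholangiocyte markers from 40.1 to 58.0 up to 225 to 547, and central hepatocyte markers from 2280 to 3051 down to 323 to 604 at 24 h. The part of these cells in the changes below was not tested.

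Acute phase proteins are plasma proteins whose synthesis by hepatocytes changes within hours of tissue damage or infection. Interleukin-6 family cytokines act through STAT3, and interleukin-1 and tumour necrosis factor through NF-kB and C/EBP factors, to raise transcription of the positive acute phase genes in hepatocytes. In mice Saa1 and Saa2 are the classical inducible serum amyloids carried on high density lipoprotein, Saa3 is made largely outside hepatocytes, and Saa4 is the constitutive member. Lcn2 binds bacterial siderophores and limits iron supply, the orosomucoids bind lipids and drugs, haptoglobin captures free haemoglobin, and Itih4 belongs to a family of plasma proteins that bind hyaluronan and protease inhibitors.

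Several of the genes are neighbours and close copies. On GRCm38 with GENCODE M21 annotation, the 4 serum amyloid genes lie within 42.3 kb of chromosome 7 (chr7:46711998-46754313) and the 3 orosomucoid genes within 21.3 kb of chromosome 4 (chr4:63344560-63365878), whereas Lcn2 lies at chr2:32384633-32388252, Hp at chr8:109575128-109579172 and Itih4 at chr14:30886476-30902353. Promoter windows of the 250 bases before the RefSeq start were found in RefSeq (GRCm38.p6) for 8 of the 10 genes. The 6 windows shown belong to the genes whose levels moved most or were most focal. They allow the Saa1 and Saa2 copies to be compared with Saa3, and Orm2 with Orm3. Letters in capitals are matches, on either strand, to TTNNGNAAT (the C/EBP motif), GGNNTTTCC (NF-kB), TTCNNNGAA (STAT), CTGGGAA (type II interleukin-6 response element) or the TATA box spelled out below, and no matches overlapped. The windows are written on the strand of the gene, at chr7:46742981-46743230 (minus strand) for Saa1, chr7:46751583-46751832 (plus) for Saa2, chr7:46715677-46715926 (minus) for Saa3, chr2:32387740-32387989 (minus) for Lcn2, chr4:63362199-63362448 (plus) for Orm2 and chr4:63355908-63356157 (plus) for Orm3.
Saa1: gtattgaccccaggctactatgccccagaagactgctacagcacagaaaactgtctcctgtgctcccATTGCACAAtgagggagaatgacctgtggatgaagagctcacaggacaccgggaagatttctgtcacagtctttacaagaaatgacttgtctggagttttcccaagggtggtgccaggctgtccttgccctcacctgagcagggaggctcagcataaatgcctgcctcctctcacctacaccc
Saa2: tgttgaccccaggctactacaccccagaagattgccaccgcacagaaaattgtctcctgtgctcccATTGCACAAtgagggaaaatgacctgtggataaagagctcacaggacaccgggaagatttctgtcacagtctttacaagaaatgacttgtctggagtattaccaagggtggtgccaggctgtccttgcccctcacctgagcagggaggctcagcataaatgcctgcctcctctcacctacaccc
Saa3: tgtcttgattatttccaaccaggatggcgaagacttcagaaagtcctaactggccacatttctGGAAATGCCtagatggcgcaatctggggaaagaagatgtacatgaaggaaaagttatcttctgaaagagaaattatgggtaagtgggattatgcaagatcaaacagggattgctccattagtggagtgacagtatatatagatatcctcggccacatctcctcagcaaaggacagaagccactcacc
Lcn2: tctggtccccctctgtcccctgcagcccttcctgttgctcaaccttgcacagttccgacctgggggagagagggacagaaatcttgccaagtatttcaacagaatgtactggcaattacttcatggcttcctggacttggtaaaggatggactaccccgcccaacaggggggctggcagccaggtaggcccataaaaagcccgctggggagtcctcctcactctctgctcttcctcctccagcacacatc
Orm2: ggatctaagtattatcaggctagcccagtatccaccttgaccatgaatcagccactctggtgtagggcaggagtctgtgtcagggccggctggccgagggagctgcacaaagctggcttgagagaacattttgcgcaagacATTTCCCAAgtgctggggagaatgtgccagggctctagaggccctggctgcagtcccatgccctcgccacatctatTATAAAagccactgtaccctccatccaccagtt
Orm3: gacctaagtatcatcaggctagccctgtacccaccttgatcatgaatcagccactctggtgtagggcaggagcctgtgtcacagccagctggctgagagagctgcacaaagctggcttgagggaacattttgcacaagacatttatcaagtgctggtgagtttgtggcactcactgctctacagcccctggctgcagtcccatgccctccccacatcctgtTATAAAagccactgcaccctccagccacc

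The Saa1 and Saa2 windows were 94.8% identical and held the same C/EBP match, ATTGCACAA, at -183 to -175 and -184 to -176 from the start. Saa3 shared 50.2% of bases with the Saa1 window and held the NF-kB match GGAAATGCC at -187 to -179, with no match to the C/EBP letters. The Orm2 and Orm3 windows were 85.9% identical, each with a TATA box match (TATAAA), while a C/EBP match at -109 to -101 was found only in Orm2 of this pair. No match to the 5 motifs was found in the Lcn2 or Saa4 window. Here and in the pairs above, a missing match says only that these letters were not there. Of 32851 RefSeq promoter windows of the same length, 10.2% held the C/EBP motif (3 of the 8 windows here), 4.93% the NF-kB motif (1 of 8), 7.02% the STAT motif (1 of 8, in Itih4), 9.10% the interleukin-6 response element (0 of 8) and 12.4% the TATA box (2 of 8).

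Levels are given below as CPM, UMIs per 1000000 of the section total after TMM scaling, which sets the bulk of genes equal between sections. The 10 genes together took 0.474%, 0.474% and 0.674% of all UMIs in the 0 h sections, 2.61% and 3.69% at 24 h, 1.72% and 1.91% at 36 h, and 0.980%, 1.27%, 1.74% and 1.30% at 48 h. By this share every injured section lay above every uninjured section, with 24 h highest. On the TMM scale 48 h A did not lie above 0 h 4, at a summed 8581 CPM against 8605 CPM. Because a 3' library counts each captured transcript once, whatever its length, levels of different genes were set side by side in CPM without division by length. Hp was the most abundant of the 10 in all 11 sections, followed in each by Orm1 and Itih4, and its share of their summed CPM was 39.9% to 41.5% at 0 h and 51.0% to 59.0% after injury.

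At 24 h against 0 h, 9 of the 10 genes were higher at an adjusted p under 0.05 (edgeR quasi-likelihood test, Benjamini-Hochberg over 14821 genes), beside 23.1% of all genes tested. The fold changes ran from 1.80 for Saa4 to 225 for Lcn2, and in all 9 the lowest 24 h section lay above the highest 0 h section, as it did in 37.0% of all genes tested. Saa3 alone did not pass. With section totals in place of TMM the median log2 difference of all genes was 0.37 at 24 h, 0.49 at 36 h and 0.54 at 48 h against 0 h, where TMM gave 0.05, 0.05 and 0.01, and the higher share of called genes went from 55.4% to 80.4%, from 57.5% to 94.1% and from 52.7% to 93.7%. All values below are relative to the TMM scale.

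**Figure D1:**
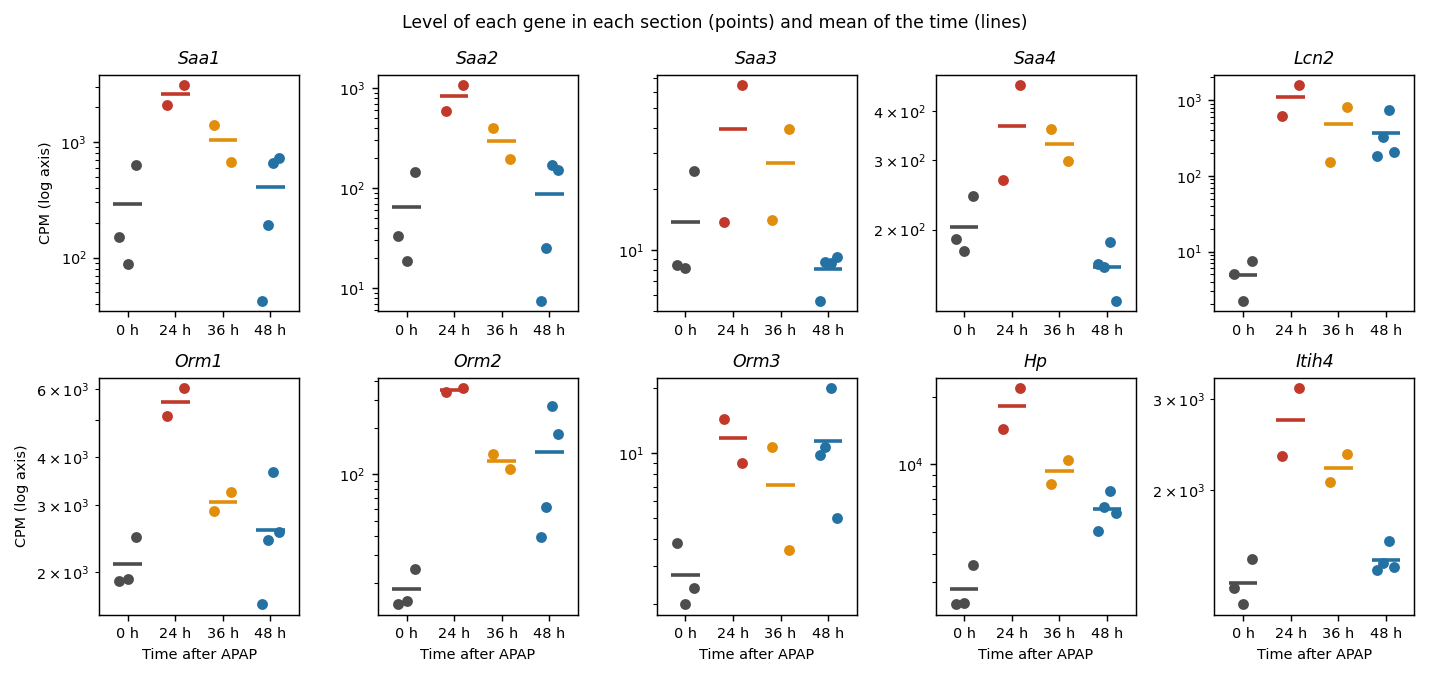
CPM (log axis) of each of the 10 genes in each section, with the 3 uninjured and 8 injured sections as points and the mean of each time as a line. Lcn2 was at most 7.51 CPM at 0 h and at least 151 CPM in every injured section, whereas Saa1 and Saa2 at 48 h spanned the range of the 0 h sections and more.

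Saa1 stood at 152, 87.7 and 636 CPM in 0 h 2, 0 h 3 and 0 h 4, and at 2068 and 3082 CPM in 24 h A and 24 h B. The uninjured sections themselves differed several-fold, with 0 h 4 highest, yet did not reach the 24 h sections. The log2 difference was 3.14 (SE 1.09, adjusted p = 0.0422, 8.82-fold), and the call was lost when 0 h 2, 0 h 3, 24 h A, 24 h B, 36 h A, 36 h B or 48 h C was left out (log2 2.68 to 4.38, adjusted p 0.0178 to 0.142 over the 11 sections left out in turn). Saa2 behaved alike, at 33.0, 18.7 and 143 CPM against 589 and 1065 CPM, a log2 difference of 3.68 (SE 1.22, adjusted p = 0.0355). Its call was lost on leaving out any of those sections other than 48 h C (adjusted p 0.0168 to 0.131).

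Saa4, the constitutive serum amyloid, was at 177 to 244 CPM in the 0 h sections and at 268 and 466 CPM in 24 h A and 24 h B. Its rise of 0.85 on the log2 scale (SE 0.23, adjusted p = 0.0127) was the smallest of the 9 and was lost without 0 h 2, 0 h 3 or 24 h B. Saa3 was at 8.39, 8.17 and 24.6 CPM in uninjured liver, then 13.7 and 64.7 CPM at 24 h, so that 24 h A lay below 0 h 4 while 24 h B lay above all 0 h sections. The log2 difference was 1.52 (SE 0.68, adjusted p = 0.0993), and ranged from 0.00 to 2.25 when single sections were left out. Without 0 h 4 Saa3 gained a call, so its missing call also depended on single sections.

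Lcn2, the siderophore-binding lipocalin, was the least abundant but for Orm3 in every 0 h section, at 5.02, 2.25 and 7.51 CPM. It rose to 621 and 1576 CPM at 24 h, a log2 difference of 7.81 (SE 1.0, adjusted p = 3.24e-04), and 24 h B again exceeded 24 h A. The call held whichever section was left out (log2 6.99 to 8.33).

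Orm1, which binds lipophilic drugs and lipids in plasma, was at 1898, 1922 and 2479 CPM at 0 h and 5108 and 6023 CPM at 24 h. This was a log2 difference of 1.41 (SE 0.26, adjusted p = 0.00179). Orm2 started far lower, at 14.6, 15.3 and 24.5 CPM, and reached 341 and 357 CPM, a log2 difference of 4.27 (SE 0.71, adjusted p = 0.00129, 19.3-fold). The 24 h sections were close to each other for Orm2, unlike for Lcn2. Orm3 was scarce throughout, at 2.01 to 3.83 CPM at 0 h and 14.4 and 8.97 CPM at 24 h (log2 2.10, SE 0.59, adjusted p = 0.0167), and lost its call without 0 h 3, 0 h 4 or 24 h A.

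Hp, whose product clears free haemoglobin, was at 2392, 2402 and 3569 CPM in uninjured liver, against 14446 and 21788 CPM at 24 h. The log2 difference of 2.70 (SE 0.24, adjusted p = 4.07e-05, 6.50-fold) had the smallest adjusted p of the 10. Itih4 was at 1211 to 1475 CPM in uninjured liver, against 2331 and 3140 CPM at 24 h, a log2 difference of 1.04 (SE 0.15, adjusted p = 3.74e-04). The calls of Hp, Itih4, Orm1 and Orm2 at 24 h held without any single section.

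At 36 h, 5 genes were still higher than at 0 h, beside 16.8% of all genes tested: Lcn2 (log2 6.64, SE 0.95, adjusted p = 0.00155), Orm2 (2.74, SE 0.68, adjusted p = 0.0156), Hp (1.74, SE 0.24, adjusted p = 9.41e-04), Itih4 (0.74, SE 0.15, adjusted p = 0.00517) and Saa4 (0.70, SE 0.23, adjusted p = 0.0422). Saa1 was at 1385 and 672 CPM, both above the 0 h sections, but at a log2 difference of 1.82 with an SE of 1.06 it did not pass (adjusted p = 0.220). Lcn2 was at 151 and 825 CPM in 36 h A and 36 h B, while Saa1 and Saa2 were higher in 36 h A than in 36 h B, so that the sections were not ranked alike by the different genes. Orm2 and Saa4 lost their 36 h calls when single sections were left out, Orm2 without 0 h 2, 0 h 3, 36 h A or 36 h B, and Saa4 without those or 48 h A or 48 h B.

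At 48 h, 4 genes were higher than at 0 h, beside 23.3% of all genes tested, and these 4 held whichever section was left out. Lcn2 was at 185, 331, 738 and 209 CPM in 48 h A to 48 h D, all far above the uninjured sections (log2 6.22, SE 0.90, adjusted p = 5.43e-04). Orm2 was at 39.1, 61.6, 275 and 181 CPM (2.94, SE 0.63, adjusted p = 0.00442) and Orm3 at 5.01 to 19.9 CPM (2.06, SE 0.52, adjusted p = 0.0103). Hp was at 5066 to 7621 CPM, still above every 0 h section (1.17, SE 0.21, adjusted p = 0.00121).

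The other 6 genes were not called at 48 h against 0 h. Saa1 was at 42.5, 193, 662 and 731 CPM, so that 48 h A fell below all 0 h sections and 48 h C and 48 h D lay above them (log2 0.48, SE 0.90, adjusted p = 0.692). Saa2 was likewise low in 48 h A and 48 h B and high in 48 h C and 48 h D, at 7.49, 25.1, 169 and 151 CPM (adjusted p = 0.739). Itih4, at 1405 to 1600 CPM, overlapped the uninjured range (log2 0.15, adjusted p = 0.358), and Saa4 was at 164, 161, 186 and 132 CPM, below the uninjured range in all but 48 h C (log2 -0.34, adjusted p = 0.176).

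Between injured times, 48 h was lower than 24 h in 6 genes, beside 17.8% of all genes tested: Saa3 (log2 -2.28, SE 0.63, adjusted p = 0.0203), Saa2 (-3.23, SE 1.08, adjusted p = 0.0443), Hp (-1.53, SE 0.22, adjusted p = 9.12e-04), Saa4 (-1.19, SE 0.21, adjusted p = 0.00241), Orm1 (-1.11, SE 0.24, adjusted p = 0.00620) and Itih4 (-0.89, SE 0.14, adjusted p = 0.00116). Without 24 h B only 3 of them passed, and Saa3 then differed by -0.76. The Saa2 call was also lost without 0 h 2, 24 h A, 36 h A, 36 h B, 48 h A, 48 h B or 48 h D (adjusted p up to 0.175). Saa1 (log2 -2.66, SE 0.98, adjusted p = 0.0605), Lcn2 (-1.59, adjusted p = 0.123), Orm2 (-1.33, adjusted p = 0.121) and Orm3 (-0.04, adjusted p = 0.960) were not called. From 24 h to 36 h 1 gene was lower, Hp (log2 -0.96, SE 0.27, adjusted p = 0.0364), beside 8.58% of all genes, and the call was lost in 7 of the 11 fits without a section. From 36 h to 48 h Saa4 (log2 -1.04, SE 0.21, adjusted p = 0.0307) and Itih4 (-0.59, SE 0.14, adjusted p = 0.0485) were lower, 2 genes beside 1.43% of all genes, and 6 of the fits without a section called neither.

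Sections of the same time differed far more in some of the genes than in others. The within-time SD of log2 CPM had a median of 0.22 over all genes tested. It was 1.67 for Saa2, 1.52 for Saa1, 1.06 for Lcn2, 0.89 for Saa3 and for Orm2, and 0.75 for Orm3, which placed these 6 genes at percentiles of 95.5 to 99.9 among all genes. Orm1 (0.34), Hp (0.30), Saa4 (0.29) and Itih4 (0.16) lay at percentiles of 30.3 to 69.7. Fold changes of Saa1, Saa2 and Lcn2 therefore carry standard errors several times those of Hp and Itih4.

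Saa1 and Saa2 transcripts were 93.9% identical and shared 9.56% of the 50-base windows in their last 300 bases. The Orm1 and Orm2 transcripts were 91.0% identical, with 97.7% identity and 58.6% of windows shared in the last 300 bases, the part that a 3' library reads. The split of UMIs between such copies is uncertain. As counted, there were 4.46 to 4.68 Saa1 UMIs per Saa2 UMI at 0 h, 2.89 to 3.51 at 24 h and 36 h, and 3.92 to 7.70 at 48 h. Orm1 made up 98.9% to 99.1% of orosomucoid UMIs at 0 h and 92.5% to 97.1% after injury, while the Orm2 share went from 0.761% to 0.978% up to 2.29% to 6.96%. With copies summed, 24 h exceeded 0 h by a log2 difference of 3.25 (SE 1.11, adjusted p = 0.0393) for Saa1 plus Saa2 and of 1.48 (SE 0.27, adjusted p = 0.00178) for the orosomucoids.

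The counts for the gene lists that follow are read beside all genes tested, of which 23.1% were higher and 18.6% lower at 24 h than at 0 h, 12.4% lower at 36 h and 20.9% lower at 48 h. A share near these says nothing particular about a list. Among inducing cytokines and their receptors, 14 of 16 listed genes were tested, and 9 were higher and 2 lower at 24 h than at 0 h (median log2 1.41, beside 0.05 for all genes, and unchanged with Il11 and Lif set at the bounds given below). Il6, the main inducer of the response, was at or below 0.125 UMIs per 1000000 in every section, with at most 5 UMIs, and was not tested. Il1b did not pass at 24 h (log2 0.04, adjusted p = 0.966) and was lower than 0 h at 36 h (log2 -2.42, SE 0.64, adjusted p = 0.0199) and at 48 h (-1.43, SE 0.47, adjusted p = 0.0311). The 36 h call was lost without 0 h 2, 36 h A or 36 h B, and the 48 h call without 0 h 2 or 0 h 3, without either 36 h section, and without 48 h B or 48 h C. Tnf rose from 0.209 ± 0.137 CPM (SD, n = 3) to 2.59 ± 0.0402 CPM (SD, n = 2). Il11 and Lif, both interleukin-6 family cytokines, had 0 UMIs in the 0 h sections and 512 and 72 UMIs at 24 h. Against a floor of 3 UMIs over the 0 h group they were at least 317-fold and 46.6-fold higher, and Il11 had fallen back to 3 UMIs at 36 h.

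Of 12 transcription factors and feedback genes, 4 were higher and 2 lower at 24 h (median log2 0.22). Socs3, the feedback inhibitor of STAT3 signalling, rose from 2.91 ± 0.868 CPM (SD, n = 3) to 25.7 ± 12.6 CPM (SD, n = 2), a log2 difference of 3.14 (SE 0.38, adjusted p = 1.87e-04, and 2.53 without 24 h B), Nfkbiz, a co-regulator of NF-kB targets, rose by 1.38 (SE 0.24, adjusted p = 0.00132), and the glucocorticoid receptor gene Nr3c1 differed by -0.95 (SE 0.15, adjusted p = 7.42e-04).

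Of 16 other positive acute phase genes, 13 were higher and 1 lower at 24 h (median log2 1.40), 8 and 3 at 36 h, and 4 and 3 at 48 h, and 12 were lower at 48 h than at 24 h. The metallothionein genes Mt2 (log2 6.50, SE 1.38, adjusted p = 0.00455) and Mt1 (5.69, SE 1.17, adjusted p = 0.00389) and the protease inhibitor gene Serpina3n (2.63, SE 0.37, adjusted p = 4.26e-04) rose most at 24 h. Their size rested on 24 h B, with Mt1 at 2229 and 19050 CPM and Mt2 at 370 and 3323 CPM in 24 h A and 24 h B, and without 24 h B the log2 differences were 4.17 for Mt2, 3.43 for Mt1 and 1.91 for Serpina3n. Without 24 h A they were 7.34 for Mt2 and 6.53 for Mt1. Of 8 negative acute phase genes, 5 were lower and 2 higher at 24 h (median log2 -0.51). The corticosteroid-binding globulin gene Serpina6 fell by 3.83 on the log2 scale (SE 0.57, adjusted p = 6.65e-04) and the transthyretin gene Ttr fell by 1.15 (SE 0.12, adjusted p = 9.06e-05), whereas Ahsg rose (0.93, SE 0.14, adjusted p = 6.50e-04).

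Among 11 partners and receptors of the encoded proteins, 4 were higher and 2 lower at 24 h (median log2 0.04) and 6 and 1 at 48 h (median 0.91). Hmox1, which degrades the haem that haptoglobin and haemopexin help to clear, rose from 12.7 ± 1.21 CPM (SD, n = 3) to 66.7 ± 23.9 CPM at 24 h (SD, n = 2) and was at 62.6 ± 15.3 CPM at 48 h (SD, n = 4). Of 6 family neighbours tested, 2 were higher and 2 lower at 24 h (median log2 0.21): Itih3, a heavy chain gene like Itih4, rose by 2.28 (SE 0.19, adjusted p = 3.25e-05), while Lcn12, a lipocalin like Lcn2, differed by -2.03 (SE 0.65, adjusted p = 0.0289) and Itih5 by -1.20 (SE 0.18, adjusted p = 4.66e-04). The Lcn12 call was lost without 0 h 3, 0 h 4 or 24 h B, and its value was -1.41 without 24 h B and -3.75 without 24 h A.

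Over the 11 sections, which share their time points, the gene with the profile most like Hp was Itih3 (Pearson r of log2 CPM 0.990), followed by Fgl1 and Ap2a1 (0.982 each). For Lcn2 these were Tnc (0.983), Timp1 (0.982) and Gar1 (0.981). Orm1 was most like Extl3 (0.958), Plod3 (0.947) and Hpx (0.940), and Extl3 also led for Saa1 (0.923) and Saa2 (0.919). Orm2 was most like Isyna1 (0.957), Saa4 like Zmpste24 (0.968), Orm3 like Tns3 (0.900) and Saa3 like Bmp1 (0.866).

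Within sections, Hp, Orm1 and Itih4 were found in nearly all spots at every time, whereas Lcn2 changed from rare to widespread. After each spot was thinned to 2000 UMIs, so that depth was equal, at least 1 Lcn2 UMI was present in 0.409% to 1.68% of spots at 0 h and in 26.5% or more in the injured sections (4.05% to 9.76% and 85.3% to 100% before thinning). Saa1 was present in 12.7% to 53.1% of thinned spots at 0 h, 95.1% to 97.2% at 24 h, 72.7% to 92.8% at 36 h and 8.49% to 75.2% at 48 h. Orm2 went from 2.07% to 3.61% at 0 h to 48.5% and 48.8% at 24 h, while Orm3 never exceeded 4.64% of thinned spots and Saa3 was present in 0.929% to 3.39% at 0 h, in 2.58% and 11% in the 24 h sections, and in 0.665% to 2.03% at 48 h. Spots off the tissue also held these transcripts. Per UMI found there, Lcn2 reached 0.749 to 1.25 times its on-tissue level in the injured sections and Hp 0.722 to 1.09 times. A UMI in a spot is thus no proof that a cell under that spot expressed the gene.

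**Figure D2:**
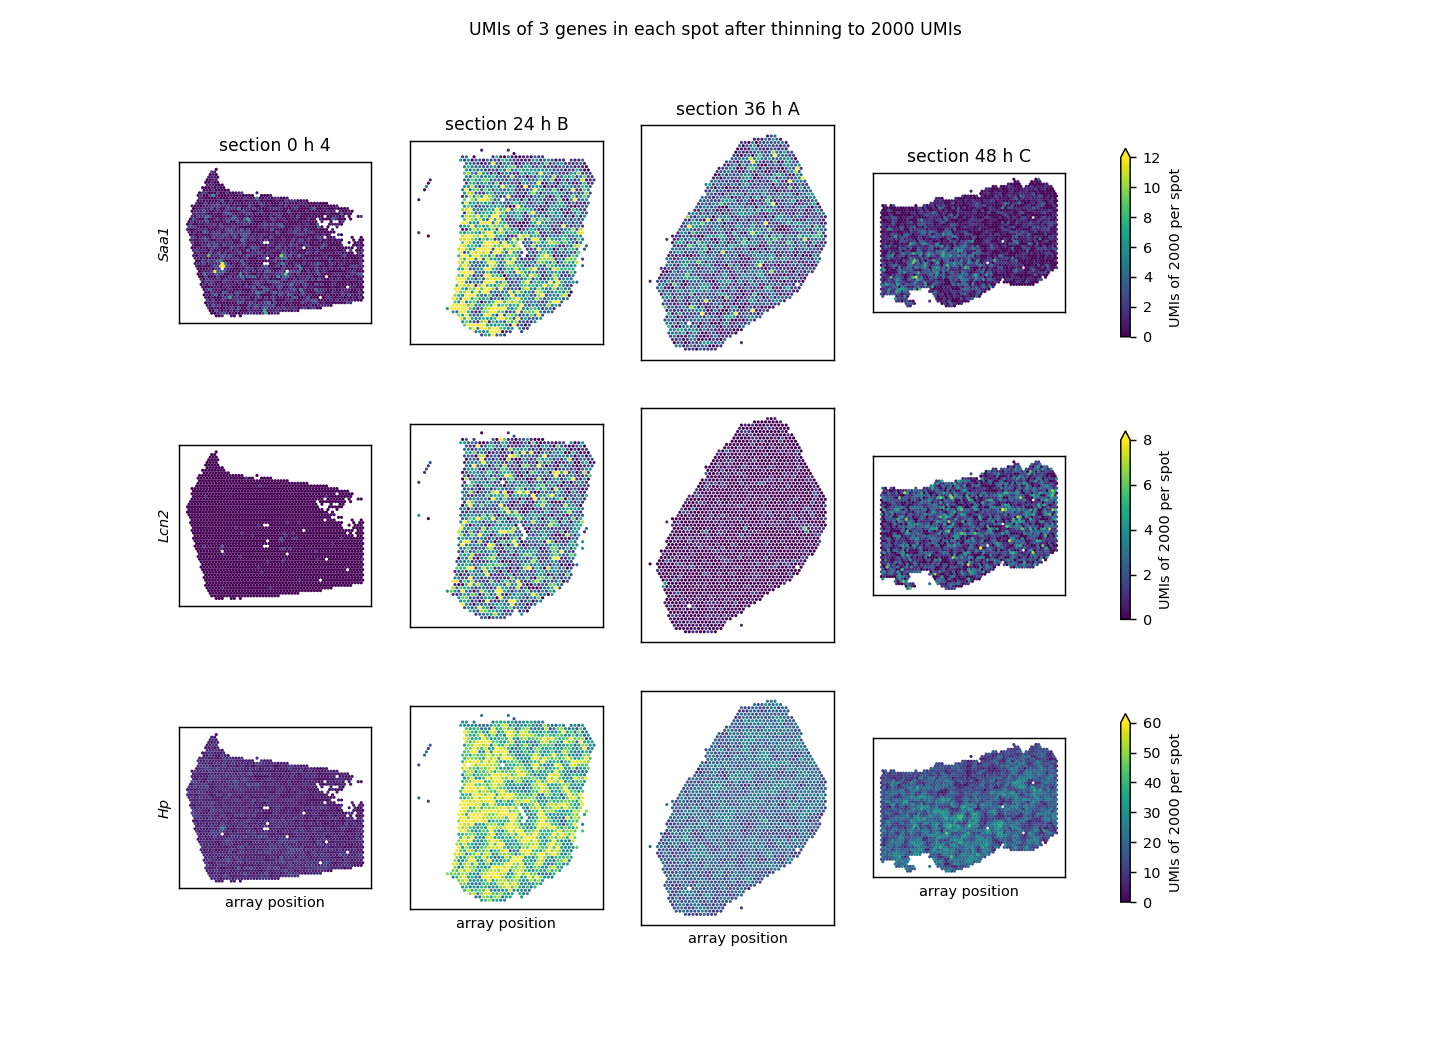
Maps of Saa1, Lcn2 and Hp in 1 section of each time, with each spot at its array position, thinned to 2000 UMIs, and coloured by the UMIs of the gene on a scale shared along a row and capped at its top. Saa1 shows a few bright spots over a low level in 0 h 4 and broad fields in 24 h B and 48 h C, and Lcn2 is nearly absent in 0 h 4 (7.51 CPM) and low in 36 h A (151 CPM).

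Levels of some genes formed fields larger than a spot. Moran's I, which is 0 for values scattered without regard to position and approaches 1 for smooth fields, was computed over touching spots. For Hp it was 0.04 to 0.13 at 0 h, 0.34 to 0.43 at 24 h, 0.22 to 0.32 at 36 h and 0.17 to 0.38 at 48 h. Saa1 went from 0.04 to 0.09 at 0 h to 0.22 to 0.35 at 24 h, and Orm1 from 0.06 to 0.07 to 0.21 to 0.31, whereas Saa3 and Orm3 stayed at or below 0.06 in every section. Across the spots of a 24 h section Orm1 and Hp were correlated at r = 0.49 to 0.61, Saa1 and Hp at 0.46 to 0.58, and Lcn2 and Hp at 0.25 to 0.42. At 0 h the same pairs had r of at most 0.11, and Saa3 had r of at most 0.16 with any of the other genes at 0 h and 24 h. The median spot held 18 to 26.5 Hp UMIs per 10000 at 0 h and 156 to 226 at 24 h, and 14.6 to 18.8 and 53.3 to 59.1 of Orm1. Low counts per thinned spot by themselves lower such r and Moran's I, so neither is comparable between 0 h and 24 h.

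Spots were also ranked within each section by a portal hepatocyte score (Cyp2f2, Hal, Sds, Gls2 and Hsd17b13). The highest of 3 parts (periportal) was compared with the lowest (portal-poor), with section as a block and CPM scaled within this fit. Spots tied at a cut were kept, so the classes differed in size, for example 930 periportal and 1188 portal-poor spots in 48 h C. At 0 h 3 genes were higher in periportal spots, beside 4.98% of 14174 genes tested: Orm1 (log2 0.41, SE 0.05, adjusted p = 1.51e-06), Itih4 (0.21, SE 0.05, adjusted p = 0.00809) and Hp (0.18, SE 0.06, adjusted p = 0.0308). Only Orm1 kept its call without each of the 3 uninjured sections in turn, while Hp (adjusted p up to 0.201) and Itih4 (up to 0.0929) lost theirs without any 1 of them. At 24 h 5 were higher, beside 8.86% of genes, at 36 h 5, beside 12.8%, and at 48 h 8, beside 29.6%. The 5 at 24 h and at 36 h were Orm1, Hp, Itih4, Saa4 and Lcn2, and at 48 h Saa1, Saa2 and Orm3 joined them. Saa3 (log2 -0.05, adjusted p = 0.874) and Orm2 (0.26, adjusted p = 0.101) were the 2 not called at 48 h. The Lcn2 call at 36 h was lost without 24 h B, 36 h B or 48 h D, and the Saa2 call at 48 h without 0 h 4, 48 h C or 48 h D. Other hepatocyte genes, all from the acute phase lists above, were higher in periportal spots too. In the order 0 h, 24 h, 36 h and 48 h, Alb differed by 0.48, 0.43, 0.51 and 0.75. Fgb differed by 0.28, 0.46, 0.38 and 0.72, and Trf by 0.24, 0.45, 0.43 and 0.48. Serpina3n (0.17, 0.45, 0.44, 0.71), Apoa1 (0.14, 0.39, 0.33, 0.26) and Ttr (0.02, 0.29, 0.35, 0.61) were called at every time but 0 h. A higher periportal level was thus not particular to the genes described here.

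Saa4 changed most in its distribution. In the 0 h sections it was at 182, 173 and 236 CPM in periportal and 199, 182 and 246 CPM in portal-poor spots, a little lower in periportal spots of all 3 sections. In 24 h A and 24 h B it was at 304 against 228 CPM and 590 against 345 CPM, and in 48 h A to 48 h D at 237 against 109, 231 against 107, 287 against 117 and 171 against 101 CPM. All 8 injured sections had more Saa4 in periportal spots. The periportal log2 difference was -0.09 (adjusted p = 0.639) before injury. It then stood at 0.59 (SE 0.10, 24 h), 0.75 (SE 0.10, 36 h) and 1.08 (SE 0.07, adjusted p = 1.72e-09, 48 h).

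Whether the periportal difference itself changed was tested as an interaction with time. Relative to 0 h it was larger at 24 h for 2 genes, Saa4 (by 0.68, SE 0.12, adjusted p = 0.00303) and Hp (0.39, SE 0.09, adjusted p = 0.00398), beside 5.35% of genes. At 36 h it was larger for 3, Saa4 (0.84), Hp (0.38) and Itih4 (0.32), beside 9.88%, and at 48 h for 4, Saa4 (1.16, SE 0.11, adjusted p = 3.01e-07), Itih4 (0.63), Hp (0.55) and Orm1 (0.40), beside 22.0%. Without 24 h B only Saa4 passed at 24 h, and without 36 h A Itih4 was not called at 36 h. Hepatocyte genes outside this set gave a scale, although all of them are on the acute phase lists above. Of the negative ones, Ttr had interactions of 0.27, 0.33 and 0.59 at the 3 times and Alb of -0.05, 0.04 and 0.27. Trf had 0.22, 0.20 and 0.25, and Apoa1 0.25, 0.19 and 0.13. Of the positive ones, Serpina3n had 0.29, 0.27 and 0.55, and Fgb 0.18, 0.10 and 0.44. At 48 h Ttr thus lay above Hp and Orm1 and below Saa4 and Itih4. Hepatocyte-low spots, defined in the next comparison, made up 9.89% to 22.5% of periportal and 15.7% to 26.7% of portal-poor spots at 48 h, fewer in periportal spots of each section. The order was the opposite at 24 h (32.1% against 29.1% in 24 h A, 42.2% against 38.7% in 24 h B), in 36 h A (19.4% against 12.7%) and in the uninjured sections, but not in 36 h B (3.05% against 10.8%). With such spots left out, an alternative added after the data were seen, 3, 5, 6 and 7 genes were higher in periportal spots at 0 h, 24 h, 36 h and 48 h.

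**Figure D3:**
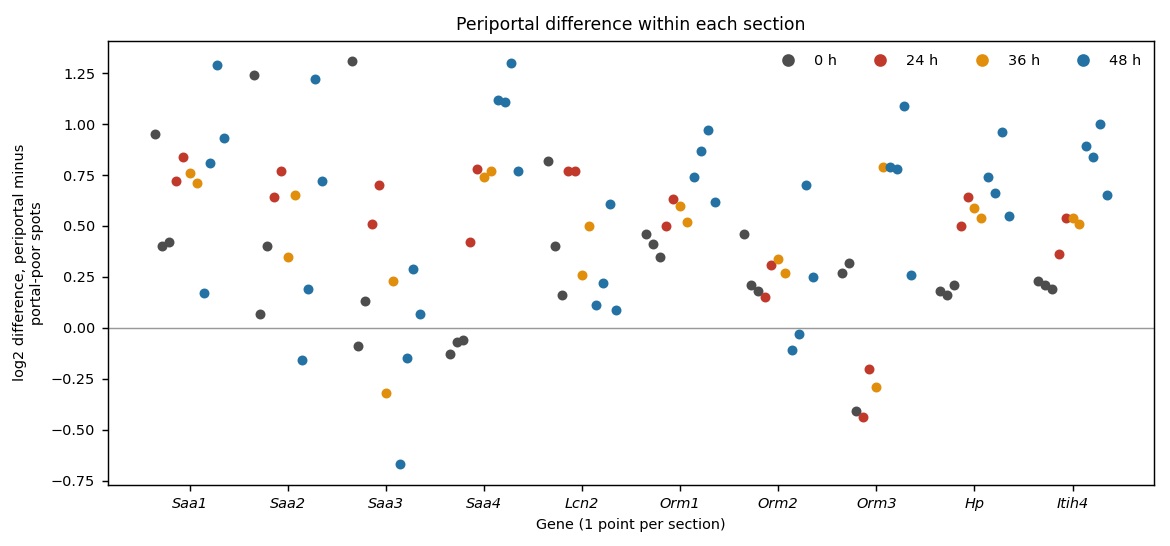
Periportal minus portal-poor level of each gene within each of the 11 sections, as a difference of log2 CPM, coloured by time. Saa4 lies below 0 in all 3 uninjured sections and above 0 in all 8 injured sections, and Hp and Itih4 lie higher in every injured section than in any uninjured section.

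Lcn2 was at 784 against 458 CPM and 1994 against 1172 CPM in periportal and portal-poor spots of 24 h A and 24 h B (log2 0.77, SE 0.11, adjusted p = 2.99e-04). At 36 h Lcn2 was at 169 against 141 and 977 against 693 CPM (0.39, adjusted p = 0.0262). The log2 difference at 48 h was 0.26 (SE 0.08, adjusted p = 0.0101), and this last value was -0.05 with totals in place of TMM. At 0 h it was 0.44 and not called. The Lcn2 interactions with 0 h were not called at 24 h (0.33), 36 h (-0.05) or 48 h (-0.18), and a change between injured times was not tested. Saa1 had a periportal difference of 0.58 at 0 h, 0.78 at 24 h and 0.73 at 36 h that did not pass (adjusted p = 0.126, 0.0512 and 0.0547), and of 0.85 at 48 h that did (SE 0.17, adjusted p = 0.00271). With totals the median of all genes in the periportal contrast was -0.16, -0.21 and -0.32 at 24 h, 36 h and 48 h, and the higher share of called genes was 38.3%, 13.4%, 15.1% and 14.9% at the 4 times in place of 49.6%, 53.0%, 57.3% and 49.3%. For the interactions it was 20.3%, 21.4% and 18.9% in place of 59.3%, 62.4% and 56.9%.

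Spots were called hepatocyte-low where a hepatocyte score (Alb, Apoa1, Ttr, Hnf4a and Cyp2e1) lay below the 1st percentile of uninjured spots. Whether they mark injured tissue was not tested. Alb, Apoa1 and Ttr are among the negative acute phase genes counted above. At 24 h these spots were also more frequent among periportal than among portal-poor spots. Such hepatocyte-low spots were 0.620% to 1.5% of spots at 0 h, 30.7% and 40.4% at 24 h, 15.6% and 7.18% at 36 h and 12.1% to 23.4% at 48 h. Far spots lay at least 3 steps away on the array, edge spots touched a hepatocyte-low spot, and both were compared in a fit of their own with its own scaling. At 48 h all 10 genes were lower in hepatocyte-low than in far spots, beside 18.8% of 14000 genes tested, by 0.43 (Orm3) to 0.67 (Orm1) on the log2 scale. The score selects spots low in hepatocyte transcripts, so lower levels of genes made by hepatocytes follow in part from that choice. Hepatocyte genes outside the score differed alike, Trf by -0.63, Serpina3n by -0.64 and Fgb by -0.55. The score genes Alb (-0.80), Ttr (-0.77) and Apoa1 (-0.61) were lower too, so the fall was not particular to the 10 genes. The calls depended on where the score was divided: at the 5th percentile, which left fewer sections and far spots, 0 of the 10 were called at 48 h or at 36 h, and Saa1 (0.22) and Saa4 (0.02) changed sign at 48 h. Without 48 h B or 48 h D the Saa3 call was lost. Hp was at 4209, 5784, 6553 and 4909 CPM in hepatocyte-low spots of 48 h A to 48 h D and at 6565, 8448, 10237 and 8325 CPM in far spots, lower in each section (log2 -0.65, SE 0.09, adjusted p = 5.70e-07). Lcn2 was lower too, at 182, 309, 636 and 193 CPM against 226, 440, 1003 and 276 CPM (log2 -0.50, SE 0.09, adjusted p = 1.89e-04). Macrophage markers and Lcn2 had r of -0.18 to 0.05 across the spots of injured sections, and neutrophil markers and Lcn2 -0.15 to 0.02.

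At 36 h, 3 genes were lower in hepatocyte-low than in far spots, beside 3.80% of genes: Orm2 (log2 -0.50, SE 0.10, adjusted p = 0.00316), Orm3 (-1.04, SE 0.27, adjusted p = 0.0178) and Itih4 (-0.44, SE 0.11, adjusted p = 0.0178). The sections of that time differed. Hp was at 9640 CPM in hepatocyte-low and 9142 CPM in far spots of 36 h A, against 7900 and 13521 CPM in 36 h B. Without 36 h B no gene of the 10 passed, and without 36 h A 8 did. At 24 h only 24 h A had enough far spots (43, against 8 in 24 h B) to be fitted, and its spread is then taken from the other sections. None of the 10 genes passed there (edgeR, 0% of genes called lower, 757 of 14000 genes at an unadjusted p under 0.05), and Hp was at 15882 CPM in hepatocyte-low, 15858 CPM in edge and 14444 CPM in far spots.

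Few of the 10 genes were called between edge and far spots. At 48 h 1 gene, Orm1, was lower (log2 -0.28, SE 0.08, adjusted p = 0.0453), beside 1.91% of genes, and it was not called without any of the 4 sections of that time in turn. Hp was lower in edge spots of each 48 h section (log2 -0.35 to -0.20) but was not called. At 36 h none of the 10 passed (0.0571% of genes called lower, 1550 at an unadjusted p under 0.05), nor at 24 h (0% called lower, 744 at an unadjusted p under 0.05). The 36 h sections differed here too. Hp, Itih4, Saa4 and Saa1 differed by -0.40, -0.42, -0.45 and -0.44 in 36 h B, and by 0.03, -0.05, 0.00 and 0.09 in 36 h A. Saa3 was higher in edge spots of both (0.46 and 0.50). With totals in place of TMM the higher share of called genes in the hepatocyte-low contrast was 93.4% and 88.8% at 36 h and 48 h in place of 49.9% and 51.9%, and in the edge contrast 96.3% at both times in place of 72.4% and 43.2%.

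**Figure D4:**
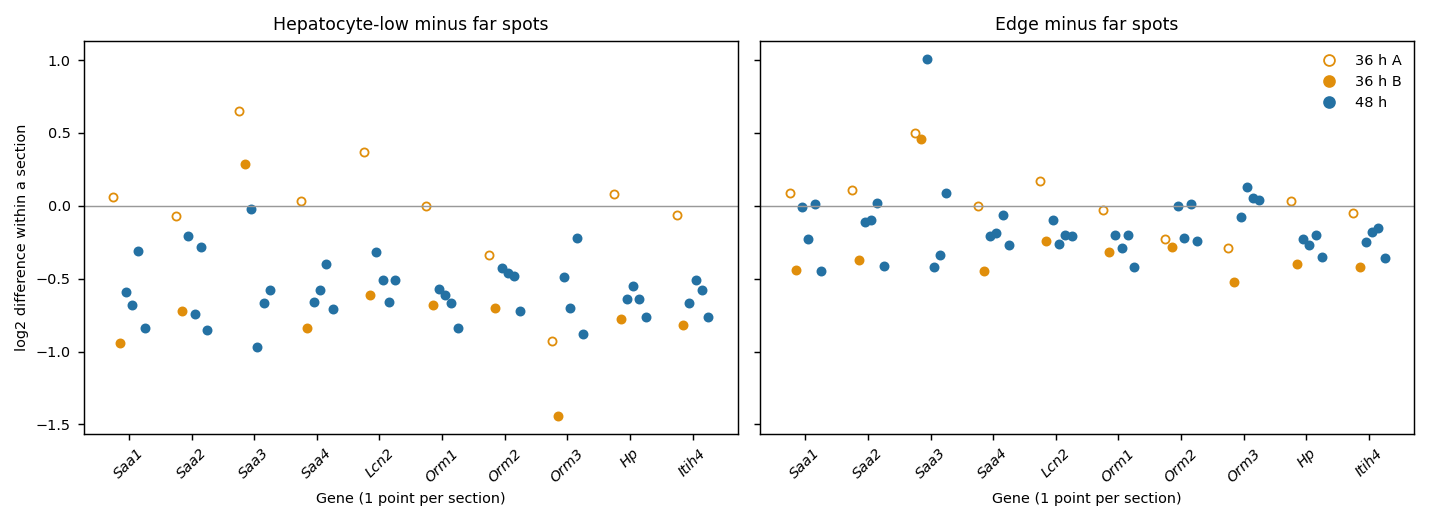
Level in hepatocyte-low spots (left) and edge spots (right) minus the level in far spots, as a difference of log2 CPM, with 1 point for each 36 h and 48 h section. In hepatocyte-low spots the 48 h sections lie below 0 for every gene, while 36 h A (open circles) lies near or above 0 for most genes and 36 h B (filled) below 0 for all but Saa3.

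A few spots held far more of a gene than the rest of their section. Spots with at least 10 UMIs of a gene and at least 10 times its section mean were counted as foci. At 0 h, 14, 10 and 21 spots of 0 h 2, 0 h 3 and 0 h 4 were foci of Saa2 and held 29.0%, 16% and 21.6% of its UMIs there, and 3, 2 and 10 spots were foci of Saa3 with 15.7%, 4.73% and 16.9%. Foci of Saa1 numbered 5, 5 and 3, and leaving them out moved its section level little, for example from 498 to 489 UMIs per 1000000 in 0 h 4. At 24 h only Saa3 had foci, of which section A held 2 and section B 3. With section means of 2090 and 3029 UMIs per 1000000 for Saa1 and 595 and 1047 for Saa2, the highest spots there (5679, 7593, 4172 and 4476) were below 10 times the mean, so the numbers of foci are not comparable between times.

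The foci of uninjured liver combined several of the genes. In the 5 Saa1 foci of 0 h 2, Saa2 was at 1204 against 21.5 UMIs per 1000000 in the other spots, Saa3 at 281 against 5.56, and the interferon-induced chemokine genes Cxcl9 and Cxcl10 were 27.5 and 18.2 times as high as elsewhere. The Saa1 foci of 0 h 4 also held Cxcl9, at 849 against 26.1, and those of 0 h 3 were led by Saa2 with no chemokine gene among the 8 leading genes. The summed hepatocyte markers in these foci were 0.897 to 1.05 times those of the other spots. The leading genes were read off after the foci were chosen and are a description without a test.

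After injury the largest groups of Saa3 foci were led by other genes. The 8 Saa3 foci of 36 h B held 17.3% of its UMIs, with 102 in the highest spot, and were led by Igfbp6 at 266 against 17.2 UMIs per 1000000, followed by Crip1, Hbb-bt, Lgals1 and Dcn, with Saa2 at 511 against 203. The summed mesenchyme markers there were 1.54 times and the hepatocyte markers 0.994 times those of the other spots. In the 3 Saa3 foci of 48 h A, with 16.2% of its UMIs, the leading genes were the globin genes Hba-a1 and Hbb-bs and the myeloid gene Lyz2, at 1613 against 464, and macrophage markers were 2.13 times those elsewhere.

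**Figure D5:**
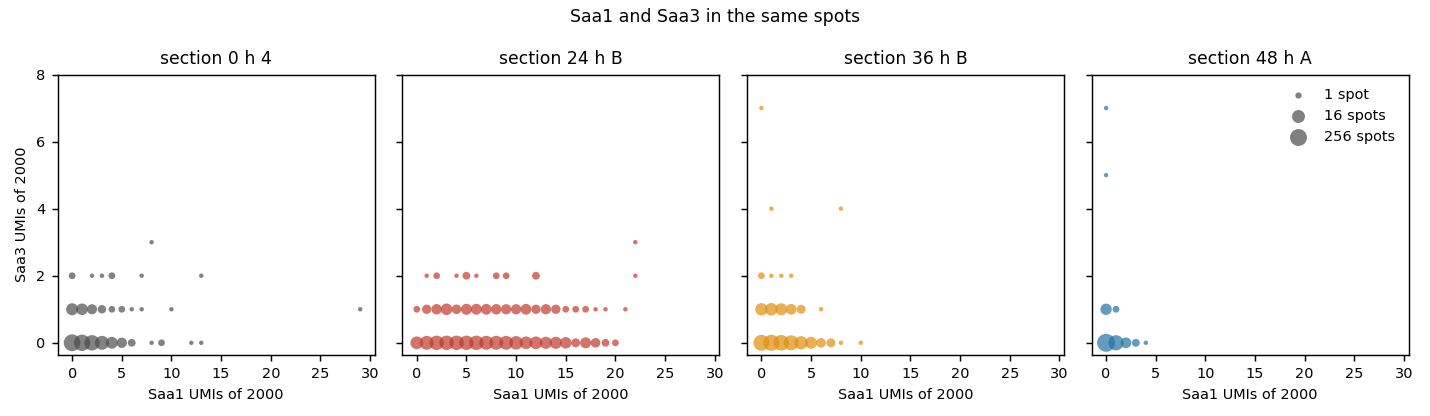
UMIs of Saa1 (horizontal) and Saa3 (vertical) in the same spots after thinning to 2000 UMIs, in 4 sections, with the area of a point growing with the number of spots at that pair of values. Spots with several Saa3 UMIs lie at or near 0 for Saa1 in 48 h A, whereas the highest Saa3 spots of 24 h B are also high in Saa1. Saa1 was at 42.5 CPM in 48 h A and 3082 CPM in 24 h B, so most spots differ in this way whatever their Saa3. Across spots Saa1 and Saa3 had r of -0.00 in 48 h A and 0.10 in 24 h B.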

How the data were processed

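The authors aligned the Visium reads to mm10 with Ensembl gene models in Space Ranger 1.0.0, and Seurat 4.1.1 is named in the submitters' processing notes. The deposited values are raw UMI counts per gene and spot for 31053 genes and 4992 barcodes per section, the same barcodes in all 11, on and off the tissue. The spot filter of the study's methods was applied (tissue mask, no fewer than 800 genes, mitochondrial UMIs no more than 20%), without the removal by hand of isolated spots that the methods also name, and counts were summed per section or per spot class, since spots are not replicates. Sums were tested with edgeR 4.0.16 in R 4.3.3 (TMM, filterByExpr by time, robust quasi-likelihood fit of all 11 sections, 2-sided tests, Benjamini-Hochberg over the genes tested, called at an adjusted p under 0.05). Spot contrasts had section as a block and classes with at least 20 spots. Spot levels were taken after thinning each spot to 2000 UMIs. Doublets do not apply to spots, no deconvolution was run, and images were not used here.

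The 10 genes and the gene lists were chosen with earlier results of these data known. All 10 were named, and of each list at most the 3 called genes with the largest log2 difference per comparison, with Il6 and Il1b in any case. The 3 genes most alike each had a mean of at least 10 CPM. The gene most like Itih4 is not reported here. Scripts were tested on simulated data. DESeq2 1.42.0, total-count scaling, other filters, other spot classes, and fits without each section were alternatives, and leaving out hepatocyte-low spots was added after the data were seen.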

Additional observations from a re-analysis of the deposited data

Results flagged for a closer look

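The level of Saa3 in 48 h A, 5.63 CPM, stood apart from the other 3 sections of its time, which lay between 8.65 and 9.22 CPM, with a gap of 0.842 of the whole range. Chance gives about 1 such outlier in 20 groups.

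The periportal log2 difference differed from that of uninjured liver by the interaction test for Saa4 (0.68), and Hp (0.39) at 24 h, for Saa4 (0.84), Hp (0.38) and Itih4 (0.32) at 36 h, and for Saa4 (1.16), Itih4 (0.63), Hp (0.55) and Orm1 (0.40) at 48 h, all in the direction of more in periportal spots.

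Spots off the tissue, which no comparison used, held more of 5 of the genes in every injured section than in any uninjured section, as did 28.5% of all genes tested. The lowest injured section had, per 1000000 UMIs off the tissue, 6323 of Hp, 2306 of Orm1, 1676 of Itih4, 154 of Lcn2 and 55.4 of Orm2. How these transcripts came to lie outside the tissue was not tested.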

How the results depend on the processing

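Of 2730 values of single genes recomputed under an alternative, 2518 kept their direction and side of the threshold, 131 lost a call, 77 gained a call and 4 changed sign: Lcn2 in periportal spots at 48 h with total counts (-0.05), and, with hepatocyte-low spots cut at the 5th percentile, Saa1 (0.22) and Saa4 (0.02) in hepatocyte-low spots and Orm1 in edge spots (0.12) at 48 h. That cutoff left 11 far spots in 48 h B and 48 h C and gave no value at 24 h, where far spots numbered 0 and 1. It called 0 genes in hepatocyte-low spots at 36 h and at 48 h and 0 in edge spots at 48 h, on fewer sections.

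Total-count scaling called 1 gene for 48 h against 36 h, 1 for the interaction at 36 h, 1 in edge spots at 36 h and 0 in edge spots at 48 h. For 48 h against 36 h, testing without the count filter and leaving out hepatocyte-low spots each called 1. Fitting only the 2 times compared called 0 genes from 24 h to 36 h and 0 from 36 h to 48 h. DESeq2 called 2 for 36 h against 24 h. Summed copies gave 2 of 7 for 48 h against 0 h, with neither the summed orosomucoids nor Saa1 plus Saa2 called. A portal score from all UMIs, or portal minus central, called 8 at 24 h and 4 for the interaction at 24 h. The cause of these shifts was not tested.

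Leaving out single sections gave 5 to 9 called genes for 24 h, 3 to 5 for 36 h and 4 to 4 for 48 h against 0 h, 0 to 2 from 24 h to 36 h, 0 to 2 from 36 h to 48 h, and 3 to 8 for 48 h against 24 h. In periportal spots it gave 1 to 4, 5 to 7, 4 to 7 and 7 to 9 at 0, 24, 36 and 48 h, and 1 to 3, 2 to 3 and 4 to 5 for the interactions. In hepatocyte-low spots it gave 0 to 0, 0 to 8 and 9 to 10 at 24, 36 and 48 h, and in edge spots 0 to 0, 0 to 5 and 0 to 5.

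The letters A and B recur at 24 h, 36 h and 48 h, but the deviations of same-letter sections correlated at 0.29 (24 h and 36 h), -0.12 (24 h and 48 h) and at 0.07 and -0.24 (36 h and 48 h), so the letters were not taken as a pairing. With the letter as a replicate block on the A and B sections the counts were 0 (24 h to 36 h), 7 (24 h to 48 h) and 0 (36 h to 48 h), and 0, 6 and 0 on the same sections without the block.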
